A study of Mus musculus with 18 samples.

Results

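Symmetric PWD-type hotspots are sites of meiotic DNA breakage that are set by the PWD allele of Prdm9 and are broken on both parental chromosomes of an infertile hybrid mouse. They were taken from the DMC1 hotspot map of adult testis of infertile F1 males. An autosomal hotspot of that map was a member when 4 criteria were met. A hotspot centre of the PWD/PWD map lay within 1000 bp, no centre of the B6/B6 map lay within 1000 bp, the B6 share of its DMC1 reads was between 0.1 and 0.9, and its H3K4me3 bin did not overlap a peak that the authors marked as likely independent of PRDM9. Members were thus chosen by the measured B6 share and by presence in these maps. The criteria left 5073 of 23554 autosomal hotspots of the infertile map (21.5%). A PWD/PWD centre was near 9889 hotspots, 9521 of these had no B6/B6 centre, 8349 of these had an unmarked bin, and 7389 of these had a B6 share.

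PRDM9 is a zinc-finger histone methyltransferase of meiotic cells that binds DNA by sequence and writes H3K4me3 on the flanking nucleosomes. The DNA is then cut by the SPO11 machinery, and the strand-exchange protein DMC1 coats the resected single strands, so that DMC1 ChIP of single-stranded DNA marks breaks awaiting repair. A hotspot is called symmetric when both homologous chromosomes are bound and cut there. Hybrids between the laboratory strain C57BL/6 (B6) and the Mus musculus musculus strain PWD have been a model of male hybrid sterility, in which many hotspots are used on only a single homologue.

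DMC1 maps came from 1 library per genotype, so no DMC1 map had a replicate. The infertile (PWDxB6)F1 males carried PRDM9pb, the PWD and B6 alleles, and had PWD mothers. Littermate rescue males of the same cross carried PRDM9ph, with a humanized allele (Hum) in place of the B6 allele. The opposite cross gave reciprocal (B6xPWD)F1 males with PRDM9bp and Hum/PWD males with PRDM9hp. A (B6xCAST)F1 map with PRDM9bc, the B6 lines PRDM9bh and PRDM9hh, and PWD males with PRDM9pp completed the maps of this series. Males of these DMC1 maps were about 10 weeks of age, and no age is listed for the H3K4me3 and input samples. For B6/B6, data of another group had been processed again, and no age is given in the sources used here. H3K4me3 was counted in 1 kb bins at the hotspots of the infertile, reciprocal and rescue F1 males, with 2 biological replicates and 1 input library per cross. The tissue was whole testis, so fewer cells at the stage of breakage and less signal per cell cannot be told apart. Replicates of the infertile F1 held 5302534 and 5284422 fragments in the autosomal bins, those of the reciprocal F1 1312114 and 1243717, and those of the rescue F1 979748 and 1097033. Each table covered its own hotspot list. Median fragments per autosomal bin were alike, at 34 and 37 in infertile, 34 and 32 in reciprocal and 33 and 37 in rescue replicates. Members had a median of 24 and 27 fragments per bin in the infertile replicates and 25 in the input. No member lay in a bin with more than 10 times the median input. Wilson 95% intervals below cover the counting of hotspots only.

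The label of these sites was set beside columns that the criteria did not use. The authors' allele column named PWD at 5011 members, was undetermined at 59 and named B6 at 3. How that column was made was not examined here, and it may rest on the same maps, so it is not an independent check. A Hum/Hum hotspot lay within 1000 bp of 1.01% of members and a B6/Hum hotspot of 0.808%. Over all other hotspots of the infertile map these shares were 2.21 and 23.1%. In symmetric B6-type hotspots they were 0.860 and 69.7%, so the Hum/Hum share did not separate members from that group. Members held 16.3% of the heat of the infertile map, where heat is the authors' relative DMC1 signal of a hotspot, and 47.1% of the heat of its PWD-type hotspots. The comparison groups were 1474 PWD-type hotspots used mainly on the B6 chromosome (share above 0.9), 842 PWD-type hotspots used mainly on the PWD chromosome (share under 0.1) and 3606 symmetric B6-type hotspots. The first 2 of these groups together are called asymmetric here.

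The B6 share in the infertile map chose the members and is given as a description only. Its median over members was 0.569, with quartiles of 0.44 and 0.70. The 3 members just inside the lower limit had shares of 0.1 and heats of 13.1, 10.9 and 10.7, and the 3 hotspots just outside it had shares of 0.098 to 0.099 and heats of 43.4, 18.8 and 15.7. At the upper limit, the 3 members just inside had shares of 0.9 and heats of 155.4, 130.5 and 49.4, and the 3 just outside had shares of 0.902 and heats of 110.8, 27.6 and 13.2.

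To show what the DNA under these hotspots looks like, the sequence at 6 hot members is printed below from the mouse reference genome, GRCm38 (mm10), which is the B6 sequence. Each run is 80 bases, 5′ to 3′ on the strand named. Capitals mark the 32 bases that best match a weight matrix of PWD-type hotspots, described after the sequences. Of 16 candidate members on the list of named hottest sites, 6 held a match above the threshold and met the limits on what is printed.
Intron of Map4k5 (chr12:69815035-69815114, minus strand): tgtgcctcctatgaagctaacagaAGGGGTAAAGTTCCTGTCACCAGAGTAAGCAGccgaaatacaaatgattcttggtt
Intron of Celf2 (chr2:6687266-6687345, minus strand): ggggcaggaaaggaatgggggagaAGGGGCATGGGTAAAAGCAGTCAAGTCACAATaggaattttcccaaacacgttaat
Intron of Klf5 (chr14:99308183-99308262, minus strand): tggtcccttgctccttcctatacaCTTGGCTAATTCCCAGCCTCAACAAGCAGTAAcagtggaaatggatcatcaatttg
Intergenic, 497094 bp from Nr4a2 (chr2:56609542-56609621, plus strand): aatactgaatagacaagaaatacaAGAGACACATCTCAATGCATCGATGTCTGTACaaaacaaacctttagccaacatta
Intron of Mastl (chr2:23151305-23151384, plus strand): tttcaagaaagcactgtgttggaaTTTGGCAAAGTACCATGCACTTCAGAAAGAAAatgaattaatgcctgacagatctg
Intron of 9930021J03Rik (chr19:29727936-29728015, minus strand): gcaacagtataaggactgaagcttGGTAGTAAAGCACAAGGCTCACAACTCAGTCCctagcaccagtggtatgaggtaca

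The matrix was learned on 11100 PWD/PWD hotspots that lay in neither the infertile nor the B6/B6 map, so none of them was a member. The most enriched word of 8 bases there was CAAGTCAC, searched on both strands (reverse complement GTGACTTG). It lay within the central 201 bp of 2.14% of these hotspots and in 0.712% of flanking windows of the same length, 301 to 500 bp from the centre. The matrix of 32 positions built around it had the consensus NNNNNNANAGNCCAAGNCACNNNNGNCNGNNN, where N stands for positions below 0.35 bits. Its threshold was set so that 5% of flanking windows of the learning set passed.

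Members carried matches to this matrix near their centres in the reference sequence. The word lay in the central 201 bp of 2.66% of members (interval 2.25 to 3.14%) and in 0.611% of their flanks, against 0.943% of the centres of symmetric B6-type hotspots and 1.67% of all infertile-map hotspots. A matrix match lay in the central 401 bp of 49.8% of members (48.4 to 51.1%), of 57.2% of PWD-type hotspots used mainly on the B6 chromosome (54.6 to 59.7%), of 31.4% of those used mainly on the PWD chromosome (28.3 to 34.6%), of 8.57% of symmetric B6-type hotspots (7.70 to 9.53%), and of 29.3% of all infertile-map hotspots. In flanking windows of 401 bp a match lay in 9.38% of members. The members thus stood between both asymmetric groups in a sequence that is that of the B6 chromosome, but the groups were not matched for heat. The 2524 best matches lay at a median of 86 bp from the centre, 1264 on the plus and 1260 on the minus strand.

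**Figure D1:**
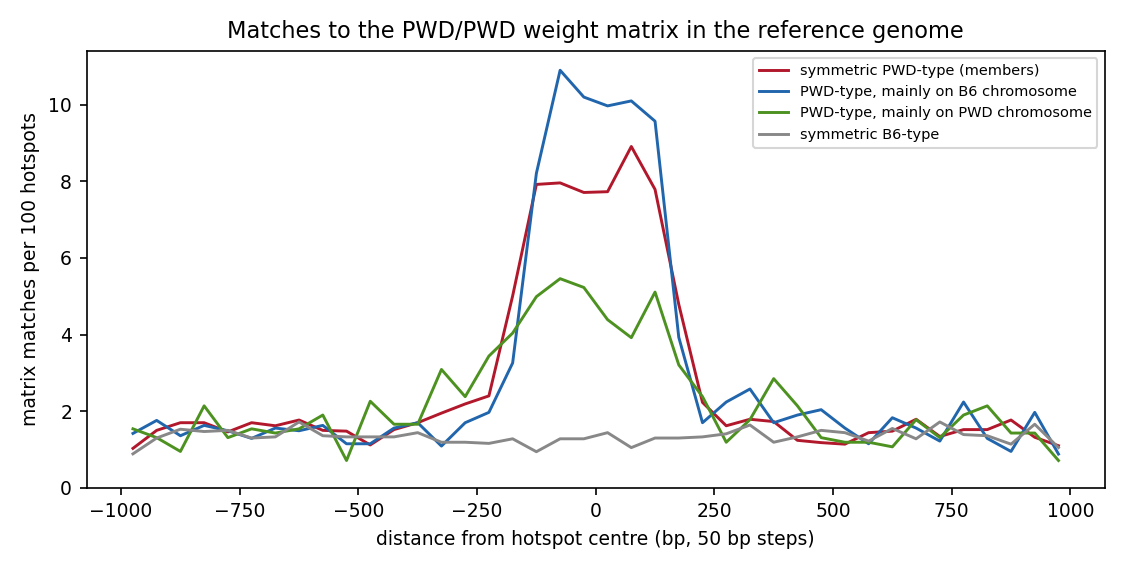
Matches to the PWD/PWD weight matrix per 100 hotspots (y axis) in 50 bp steps from the hotspot centre (x axis, bp), for members and 3 comparison groups. In the 50 bp before the centre, members held 7.71 matches per 100 hotspots, the B6-chromosome group 10.2, the PWD-chromosome group 5.23 and symmetric B6-type hotspots 1.28.

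Matches differed among members as well. They lay in the central 401 bp of 57.6% of the hottest 25% of members (54.8 to 60.3%) and of 43.3% of the coolest 25% (40.6 to 46.0%). By B6 share in the infertile map, they lay at 38.2% of members below 0.3 (34.2 to 42.4%), 50.0% from 0.3 to 0.5, 52.0% from 0.5 to 0.7 and 50.7% from 0.7 upward (48.0 to 53.4%). The median GC content of the central window was 43.3% in members, 44.3% and 43.3% in the groups used mainly on the B6 and PWD chromosomes and 42.8% in symmetric B6-type hotspots. These shares are descriptions of sequence matches.

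Presence in the other maps came next. Of 5073 members, 75% had a hotspot within 1000 bp in the reciprocal map (73.8 to 76.2%), 59.4% in the Hum/PWD map (58.0 to 60.7%), 34.9% in the rescue map (33.6 to 36.2%) and 14.7% in the (B6xCAST)F1 map (13.7 to 15.7%). PWD-type hotspots used mainly on the B6 chromosome were found more widely, in 95.7, 88.1, 73.9 and 21.5%. Those used mainly on the PWD chromosome were found in 77.0, 66.3, 34.9 and 8.67%. All 3 other hybrid maps with a PWD parent held 1711 members (33.7%), and none of these 3 held 1126 (22.2%). A further 1165 members (23.0%) lay in the reciprocal and Hum/PWD maps but not in the rescue map, and 907 (17.9%) in the reciprocal map alone of the 3. The members in all 3 had a median infertile heat of 81.2 and a median PWD/PWD heat of 183, and those in none 8.90 and 58.5.

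Heat in the infertile map separated found from missing members. In the coolest 25% of members, up to a heat of 11.8, the reciprocal map held 27.1%, the Hum/PWD map 13.4% and the rescue map 2.03%. In the hottest 25%, above 57.3, these shares were 100, 99.1 and 91.8%. Above that heat the rescue map held 91.8% of members (90.2 to 93.2%), against 96.8% of PWD-type hotspots used mainly on the B6 chromosome (95.6 to 97.8%) and 86.8% of those used mainly on the PWD chromosome (80.7 to 91.2%). That range has no upper limit, and the order differed in cooler ranges. From 24.4 to 57.3 the rescue map held 38.2% of members, against 35.6% and 46.9% of these groups. From 11.8 to 24.4 it held 7.61% of members, against 7.81% and 15.7%. The maps have different lengths, with 17516 autosomal hotspots for reciprocal, 20623 for Hum/PWD and 15019 for rescue males, and a missing site may lie under the lowest heat that was called. When each map was cut to its 15019 hottest hotspots, as many as in the rescue map, the share of members found was 63.6% in the reciprocal and 42.0% in the Hum/PWD map.

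**Figure D2:**
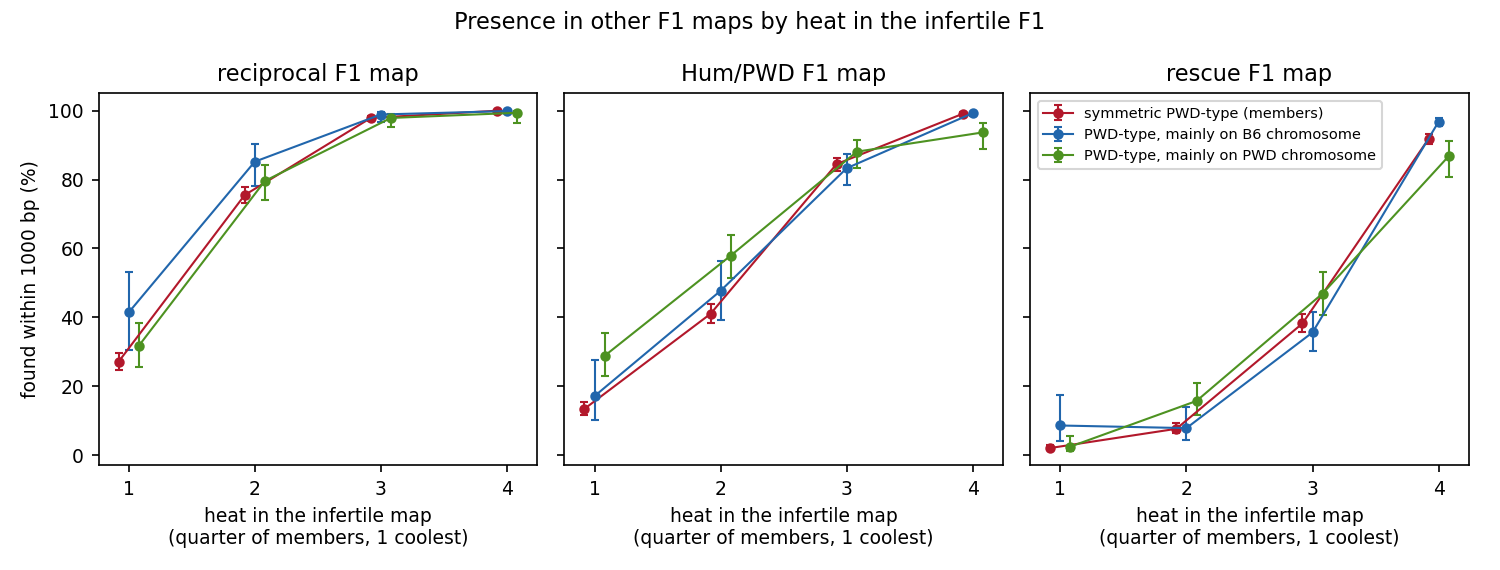
Share of hotspots (y axis, %) with a hotspot within 1000 bp in the reciprocal, Hum/PWD and rescue F1 maps, by 4 ranges of heat in the infertile map that each hold about 25% of members (x axis), with Wilson 95% intervals as bars. The coolest members were found in 27.1, 13.4 and 2.03%, and the hottest in 100, 99.1 and 91.8%.

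Members were cooler than PWD-type hotspots used mainly on the B6 chromosome in every PWD hybrid map, and hotter than them in the PWD/PWD map. Median heat in the infertile map was 24.4 in members, with quartiles of 11.8 and 57.3, against 115 in the B6-chromosome group and 22.7 in the PWD-chromosome group. In the reciprocal map the medians were 28.1, 116 and 25.6, in the Hum/PWD map 28.6, 90.5 and 27.3, and in the rescue map 44.9, 102 and 43.2, over the hotspots found there. In the PWD/PWD map the order was the opposite for the B6-chromosome group, with 109 in members, 49.9 in the B6-chromosome group and 119.7 in the PWD-chromosome group. The 24.4 of members in the infertile map was close to the 24.9 of symmetric B6-type hotspots. Each value is from 1 library, so none of these ratios was tested. The ratio of members over all asymmetric PWD-type hotspots in the infertile map was 0.415, and 0.723 when symmetry was read as 0.3 to 0.7. Over the B6-chromosome group alone it was 0.212, with 0.451 under limits of 0.3 to 0.7 and 0.474 in the hotter 50% of PWD-type hotspots.

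At equal PWD/PWD heat, members were cooler than the B6-chromosome group in the infertile map, while their order with the PWD-chromosome group varied. Among hotspots with a PWD/PWD heat up to 50, median infertile heat was 10.1 in 813 members, 70.7 in 738 hotspots used mainly on the B6 chromosome and 11.5 in 89 used mainly on the PWD chromosome. From 100 to 200 the medians were 33.9, 167 and 26.9, and above 200 they were 107, 309 and 56.9. Across members, infertile heat went with heat in the reciprocal map (Spearman rho 0.939 over 3805 sites), the Hum/PWD map (0.810, 3013), the rescue map (0.780, 1769) and the PWD/PWD map (0.711, 5073). These are correlations across sites that share their sequence context, and the maps hold 1 library each.

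H3K4me3 was detectable at most members in the infertile F1. In the rescue F1 it was detectable at most of the members that had a bin there. By the authors' p-values with Benjamini-Hochberg adjustment at 0.05, the mark was enriched at 78.8% of members in the infertile F1 (background over all its autosomal bins 83.1%), at 37.0% of the 3805 members with a bin in the reciprocal F1 (background 44.1%) and at 85.9% of the 1769 with a bin in the rescue F1 (background 87.9%). In each cross the members' share was below the background, which includes bins with a PRDM9-independent peak that the criteria leave out of members. Without such bins, the share in the infertile F1 was 93.0% in hotspots used mainly on the B6 chromosome and 72.4% in those used mainly on the PWD chromosome. It was 82.1% in symmetric B6-type hotspots. Median enrichment over local background was 0.717 in members, 1.72 in the B6-chromosome group, 0.493 in the PWD-chromosome group and 0.798 in symmetric B6-type hotspots of the infertile F1. The reciprocal table had the lowest enrichment, with 0.308 in members and 0.663 in the B6-chromosome group, and the rescue table had 0.777 and 1.13.

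Summed over bins, ChIP over input counts in the 2 infertile replicates were 1.5 and 1.60 in members, against 2.40 and 2.5 in the B6-chromosome group and 1.03 and 1.14 in the PWD-chromosome group. In the reciprocal replicates they were 1.20 and 1.15 in members, 1.48 and 1.4 in the B6-chromosome group and 0.963 and 0.932 in the PWD-chromosome group. In the rescue replicates they were 1.38 and 1.55 in members, 1.63 and 1.82 in the B6-chromosome group and 0.897 and 0.983 in the PWD-chromosome group. Members lay between the asymmetric groups in all 6 libraries. The ratio of members over the B6-chromosome group was 0.632 ± 0.0130 (SD, n = 2) in infertile, 0.814 ± 0.00703 in reciprocal and 0.851 ± 0.00445 in rescue males.

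The infertile ratio was outside the range of the reciprocal and rescue replicates, but 2 against 2 replicates cannot give an exact two-sided permutation p below 0.33, which is the value found for both comparisons. The ratios rest on different lists of bins, since each table covers its own hotspots. At the 1733 members and 1087 hotspots of the B6-chromosome group with a bin in all 3 tables, the ratio was 0.921 ± 0.00536 in infertile, 0.978 ± 0.0109 in reciprocal and 0.854 ± 0.00438 in rescue males (SD, n = 2). Against all 1375 asymmetric hotspots with a bin in all 3 tables, it was 1.00 in infertile, 1.03 in reciprocal and 0.935 in rescue males, in place of 0.783, 0.90 and 0.933 over each table's own bins. The order of the crosses thus depended on which bins were counted.

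At equal H3K4me3, members carried less DMC1 than hotspots used mainly on the B6 chromosome. In the infertile F1, bins with an enrichment from 1 to 1.5 had a median heat of 40.5 in 617 members and 78.1 in 189 hotspots of the B6-chromosome group, and from 2.5 to 4 it was 102 in 412 members and 196 in 289 hotspots. Over 10 bands of equal numbers of hotspots, members were cooler in all 10, and the ratio of band medians, weighted by members, was 0.546. It was 0.559 with H3K4me3 from replicate 1 alone and 0.527 with replicate 2 alone. The ratio was 0.412 in the reciprocal F1, over the 8 bands that could be formed, and 0.628 in the rescue F1 over 10 bands, and members were cooler in every band of both. These bands and the ratio were chosen after seeing the data.

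The other groups lay closer to members. Against hotspots used mainly on the PWD chromosome the ratio was 0.852 in the infertile F1 (lower in 10 of 10 bands), 0.951 in the reciprocal F1 (5 of 8 bands, and 1.03 with replicate 2 alone) and 0.749 in the rescue F1 (8 of 8 bands). Against symmetric B6-type hotspots of the infertile F1, median heat from 1 to 1.5 in enrichment was 40.5 in members and 35.0 in 452 B6-type hotspots, and from 2.5 to 4 it was 102 in members and 82.8 in 291. These bands differed most, with ratios of 1.16 and 1.24. In the other bands of the infertile F1 the ratio was 1.01 to 1.07, so both groups were nearly alike. In the reciprocal F1 it lay on both sides of 1, from 0.914 to 1.14. Read the other way, at a heat of 100 to 200 the median H3K4me3 enrichment was 2.96 in 509 members and 2.22 in 400 hotspots of the B6-chromosome group in the infertile F1. It was 1.39 and 0.820 in the reciprocal F1 and 1.73 and 1.41 in the rescue F1. Below a heat of 25 the values were 0.344 and 0.329 in the infertile F1 and 0.336 and 0.383 in the rescue F1, so the order did not hold for the coolest sites of the rescue map.

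**Figure D3:**
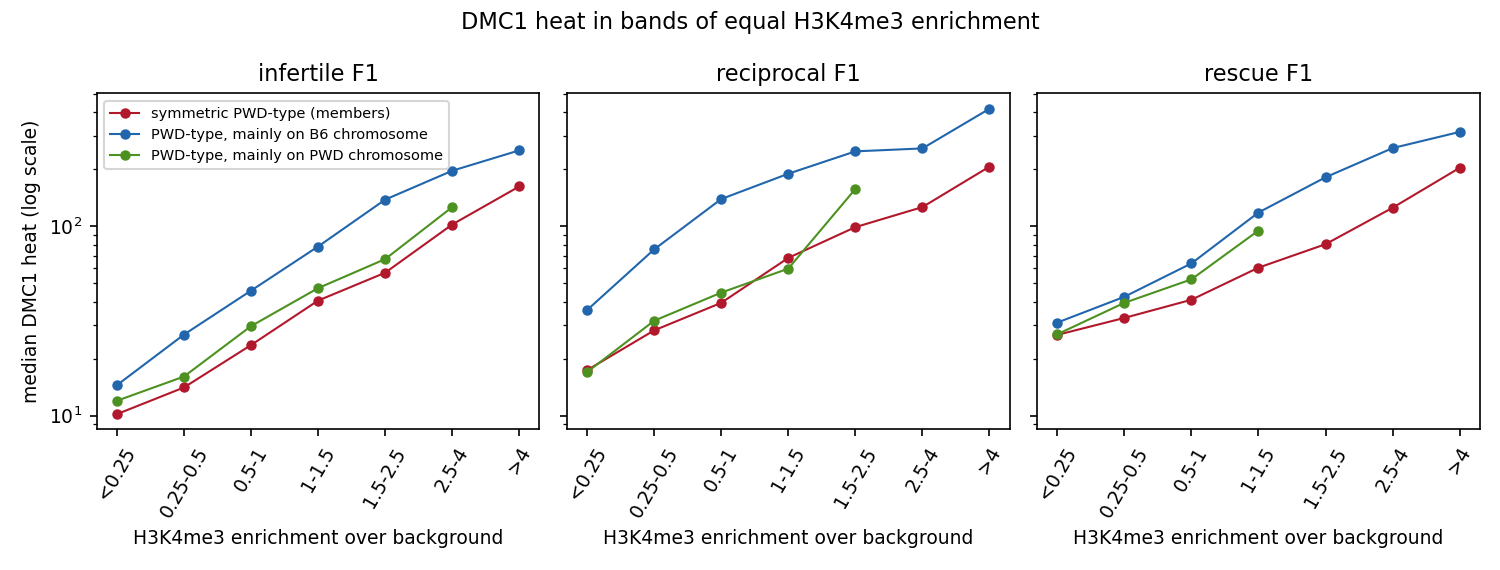
Median DMC1 heat (y axis, log scale) of members and of both asymmetric PWD-type groups in bands of H3K4me3 enrichment over background (x axis), for the infertile, reciprocal and rescue F1. Points with fewer than 20 hotspots are not drawn. Members lie below the B6-chromosome group in every band, with 40.5 against 78.1 in the infertile F1 at an enrichment of 1 to 1.5.

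Use of both chromosomes was then read in data the criteria did not touch. By H3K4me3 with at least 10 informative reads, the B6 share lay between 0.1 and 0.9 at 95.6% of 3048 members in the infertile F1 (94.8 to 96.3%), at 89.7% of 1530 in the reciprocal F1 (88.0 to 91.1%) and at 93.9% of 1140 in the rescue F1 (92.4 to 95.2%). Among hotspots used mainly on the B6 chromosome it lay there at 36.1% of 1245, 26.4% of 988 and 32.4% of 929. By DMC1, 91.9% of 3427 members were symmetric in the reciprocal map, 95.6% of 1517 in the rescue map, 95.4% of 2807 in the Hum/PWD map and 81.5% of 718 in the (B6xCAST)F1 map. In the same order these shares were 5.44, 17.3, 15.8 and 65.6% in the B6-chromosome group. They were 10.1, 29.1, 21.9 and 51.4% in the PWD-chromosome group. The groups were thus separated least in the (B6xCAST)F1 map. In that map, where the partner of B6 is CAST and no PWD allele is present, 16.4% of members had a share above 0.9.

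The shares of single sites were ordered alike between maps. The DMC1 B6 share of members in the infertile map went with that in the reciprocal map (Spearman rho 0.826 over 3427 sites), the Hum/PWD map (0.70, 2807) and the rescue map (0.681, 1517). The DMC1 share in the reciprocal map went with the H3K4me3 share in the infertile F1 (rho 0.504 over 2516). Members with an infertile share from 0.1 to 0.3 had a median H3K4me3 share of 0.288 in the infertile F1 and a median DMC1 share of 0.208 in the reciprocal map, and those from 0.7 to 0.9 had 0.645 and 0.818. These are descriptions across sites.

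Between infertile and rescue males, the middle of the DMC1 share differed more than that of H3K4me3. Between infertile and reciprocal males, both differed by similar small amounts. Hum/PWD males had no H3K4me3 counts. At the members measured in both maps, the median B6 share of DMC1 was 0.584 in infertile and 0.5 in rescue males (median paired difference 0.0730, higher in the infertile map at 71.1% of 1517 sites). It was 0.576 in infertile and 0.471 in Hum/PWD males (0.0930, 76.3% of 2807), and 0.581 in infertile and 0.609 in reciprocal males (−0.0200, 40.6% of 3427). For H3K4me3 the paired difference was −0.000673 against the rescue F1 (0.528 in infertile and 0.535 in rescue males, 1106 sites) and −0.0157 against the reciprocal F1 (0.525 in infertile and 0.545 in reciprocal males, 1441 sites). The infertile DMC1 share was limited to 0.1 to 0.9 by the choice of members, and each map is 1 library, so these differences were not tested. The difference against the rescue map was 0.0415 in the cooler 50% of members (98 sites), 0.0740 in the hotter 50% and 0.0710 in the 500 hottest.

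At 865 members with both readouts in all 3 crosses, the DMC1 share exceeded the H3K4me3 share by a median of 0.0621 in the infertile F1 (DMC1 0.596, H3K4me3 0.531) and 0.0669 in the reciprocal F1 (DMC1 0.617, H3K4me3 0.551). In the rescue F1 it was lower by a median difference of −0.0146 (DMC1 0.517, H3K4me3 0.537). Over all members the median H3K4me3 share in the infertile F1 was 0.520, against 0.473 in symmetric B6-type hotspots.

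**Figure D4:**
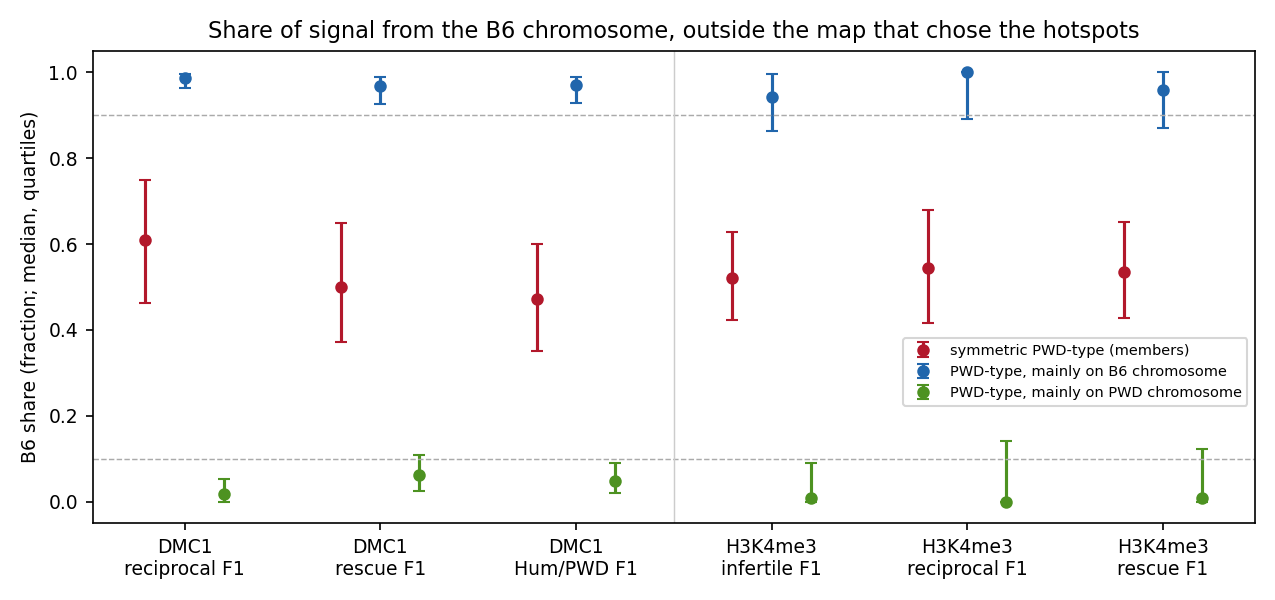
B6 share (y axis, fraction; points are medians and bars quartiles) of DMC1 in the reciprocal, rescue and Hum/PWD F1 maps and of H3K4me3 in the infertile, reciprocal and rescue F1 (x axis), for members and both asymmetric PWD-type groups; dashed lines mark 0.1 and 0.9. Members have medians from 0.471 to 0.609, and the asymmetric groups lie outside the dashed lines by their medians.

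Whether H3K4me3 differed between crosses was tested at bins that 2 tables share, with centres within 200 bp, by edgeR's quasi-likelihood test with Benjamini-Hochberg adjustment over all shared bins. The test used ChIP fragment counts without the input, so background fragments of a bin are counted as signal. Infertile and reciprocal males shared 14731 tested bins, of which 3220 were members. Among members, 374 (11.6%) were higher in the infertile F1, with a background of 10.1% of the 10427 bins of other hotspots without a PRDM9-independent peak, and 290 (9.01%) were lower, with a background of 9.15%. The median log2 fold change was −0.06 in members and −0.02 in all bins. Both member shares were near the background. DESeq2 called 13 members higher and 1 lower, with a median dispersion of 0.0497 against a common dispersion of 0.0024 in edgeR. These calls were 0.404% and 0.0311% of members, against 0.374% and 0.286% of all bins without a PRDM9-independent peak. Without infertile replicate 1, reciprocal replicate 1 or reciprocal replicate 2, edgeR called 223, 137 and 176 members higher and 114, 90 and 114 lower.

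The direction of these count differences followed heat in members as it did elsewhere. Median enrichment of members was 0.308 in the reciprocal and 0.717 in the infertile table. Input was not used in the test, so a lower count at a cool site need not be less of the mark. In the hottest 25% of members the median log2 fold change of infertile over reciprocal was 0.26, with 318 called higher and 11 lower of 1195, and in the coolest 25% it was −0.66, with 1 higher and 76 lower of 238. In the other unmarked bins of the same heat ranges the medians were 0.21 and −0.70. Of 5141 such bins in the hottest range, 939 were called higher and 63 lower. Of 793 in the coolest range, 0 were called higher and 295 lower. The member with the smallest p lay in an intron of Riok3, a kinase gene (chr18:12135372), with 176 and 168 fragments in the infertile replicates, against 72 and 73 in the reciprocal replicates, and log2 fold change 0.98 ± 0.15 (SE, adjusted p = 5.05e-09). An intron of Rasgrf2, which encodes a guanine nucleotide exchange factor (chr13:91954762), had 289 and 275 fragments in infertile males, against 139 and 144 in reciprocal males (0.73 ± 0.12, adjusted p = 1.92e-07). The groups did not overlap at either site, but both sites were picked by their small p, so this adds no support.

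Infertile and rescue males shared 4265 tested bins, of which 1460 were members. Among members, 61 (4.18%) were higher in the infertile F1, with a background of 1.52% of the 2434 other bins without a PRDM9-independent peak, and 58 (3.97%) were lower, with a background of 5.22%. Bins with such a peak, which the criteria leave out, stood apart, with 57.1% of 371 lower. The median log2 fold change was 0.14 in members and 0.04 in all bins without such a peak. With libraries scaled on bins marked as PRDM9-independent, a choice made after seeing the data, the medians were 0.80 and 0.70. Then 1128 members (77.3%) were called higher and 21 (1.44%) lower, against 73% and 1.93% of all bins without such a peak. This rescaling moves all bins by about the same amount, so it turned the split of calls and left the distance of members from the other bins as it was. DESeq2 called 4 members higher (0.274%) and 25 lower (1.71%), against 0.36% and 2.29% of all bins without a PRDM9-independent peak. The larger share of members called higher by edgeR was thus not seen with DESeq2. Leaving out infertile replicate 1 or 2 left 12 and 11 members higher and 31 and 34 lower, and leaving out rescue replicate 1 or 2 left 40 and 25 higher and 44 and 44 lower. By group, the median was 0.14 in members, −0.01 in the B6-chromosome group and −0.02 in the PWD-chromosome group.

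A minority of the members called lower in infertile than in rescue males had a hotspot of the humanized allele close by. Their share was larger than among the other tested members. The input was not used in these calls, so a lower count need not be less of the mark. Of the 58, 17 (29.3%) had a Hum/Hum or B6/Hum hotspot within 1000 bp, against 0 of the 61 called higher and 3 of the 1341 not called (0.224%). The largest decreases were at an intron of Elovl6, a fatty acid elongase gene (chr3:129595199), and 6182 bp from Mill2, an MHC class I-like gene (chr7:18833784). The Elovl6 site had 14 and 26 fragments in infertile males, against 116 and 119 in rescue males (log2 fold change −3.36 ± 0.21 SE, adjusted p = 1.41e-21), and DMC1 heats of 14.8 in infertile, 292.5 in rescue, 232.4 in Hum/PWD and 192.2 in Hum/Hum males. The Mill2 site had 11 and 20 fragments in infertile males, against 86 and 97 in rescue males (−3.37 ± 0.23, adjusted p = 1.06e-19), and heats of 12.9, 116.9, 127.8 and 172.1 in the same maps. Replicates of the crosses did not overlap at either site, but these sites too were picked by their small p. A site 3333 bp from the ion channel gene Calhm1 (chr19:47147587) had 27 and 32 fragments in infertile males, against 84 and 93 in rescue males (−2.40 ± 0.20, adjusted p = 3.94e-16).

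**Figure D5:**
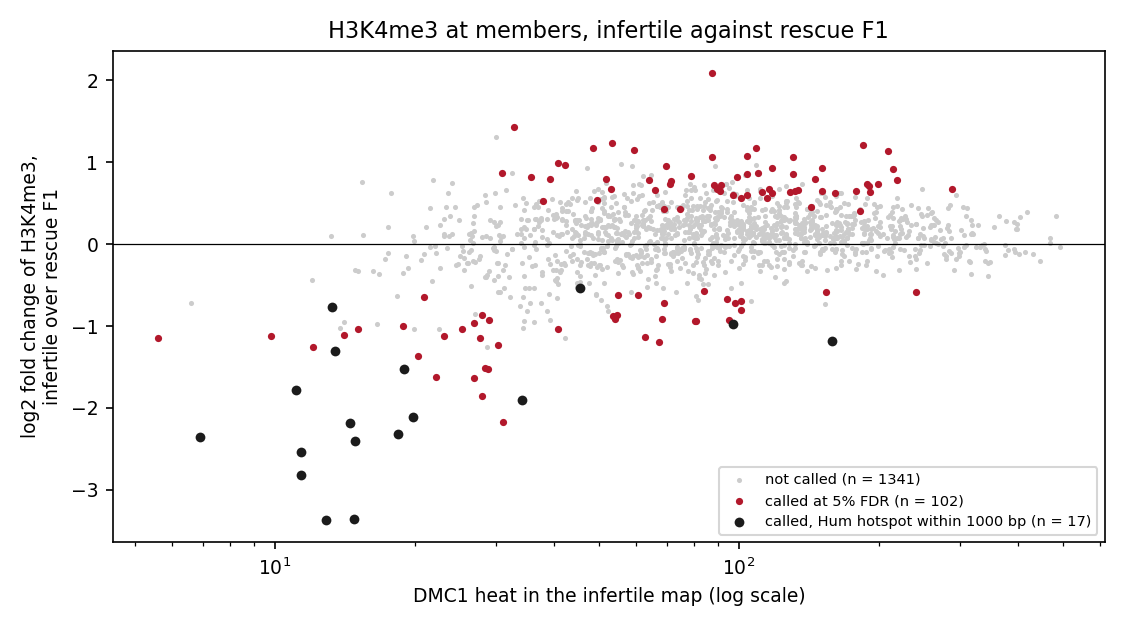
Log2 fold change of H3K4me3, infertile over rescue F1 (y axis), against DMC1 heat in the infertile map (x axis, log scale) for the 1460 tested members; colours mark members called at 5% FDR by edgeR and those with a Hum/Hum or B6/Hum hotspot within 1000 bp. The 17 called members with such a hotspot are all below 0, down to −3.37.

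In all, 55 members had a Hum/Hum or B6/Hum hotspot within 1000 bp. Their median heat was 16.1 in infertile males and 89.6 in rescue males, where 43 of them were found (78.2%). The other 5018 members had a median of 24.5 in infertile males and 43.8 in rescue males, where 34.4% were found. At sites found in both maps, the median log2 ratio of infertile over rescue heat was −2.10 for the 43 and 0.70 for 1726 of the others. At 3 members a hotspot was called in all maps but that of B6/B6, the map that the criteria exclude. The hottest of these 3 lay 776 bp from Il5, a cytokine gene (chr11:53720018), with heats of 298.1 in infertile, 309.2 in reciprocal, 308.0 in rescue, 246.8 in PWD/PWD and 62.1 in Hum/Hum males.

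Among the hottest members, the first by infertile heat lay in an intron of Map4k5, a kinase gene (chr12:69815018), with heats of 491.3 in infertile, 517.5 in reciprocal, 588.7 in rescue, 555.7 in Hum/PWD and 533.4 in PWD/PWD males. Its B6 share was 0.882 in infertile, 0.870 in reciprocal, 0.823 in rescue and 0.832 in Hum/PWD males, so it lay near the upper limit throughout. The second, 239310 bp from Gm597 (chr1:29019562), had an infertile heat of 483.3 and a B6 share of 0.61, with a rescue heat of 586.8 and share of 0.535. Its H3K4me3 counts were 122 and 134 in infertile males, against 54 and 76 in reciprocal males (log2 fold change 0.71 ± 0.16, adjusted p = 0.000261 by edgeR). An intron of Celf2, a splicing regulator gene (chr2:6687370), had heats of 469.4, 505.3 and 542.6 in the infertile, reciprocal and rescue maps and shares of 0.893, 0.921 and 0.843. An intron of Klf5, a zinc-finger transcription factor gene (chr14:99308167), had heats of 444.8, 520.2 and 559.8 and shares of 0.439, 0.414 and 0.495.

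Several hot members were close to even use of both chromosomes. The site nearest to 0.5 among the hottest 10% of the map with the highest heat lay in an intron of Slc37a3, a solute carrier gene (chr6:39355319), with shares of 0.501 in infertile, 0.502 in reciprocal, 0.483 in rescue and 0.494 in Hum/PWD males. It had 588 and 499 H3K4me3 fragments in infertile males, 382 and 328 in reciprocal males and 323 and 336 in rescue males, with H3K4me3 B6 shares of 0.439, 0.509 and 0.430. An intron of Ncoa1, a nuclear receptor coactivator gene (chr12:4422951), had DMC1 shares of 0.494, 0.512 and 0.414 in the infertile, reciprocal and rescue maps, with heats of 395.3, 411.8 and 587.2. Among the 10 hottest members were 2 in coding exons, of the Arf GTPase-activating gene Smap1 (chr1:23848464, infertile heat 404.5) and of the phosphatase inhibitor gene Ppp1r8 (chr4:132829404, 402.4).

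Other named members differed between the crosses in heat or in B6 share. The intron of Mastl, a mitotic kinase gene (chr2:23151467), had heats of 377.0 in infertile, 432.8 in rescue and 632.3 in PWD/PWD males and B6 shares of 0.469 and 0.295 in the infertile and rescue maps. The intron of Yme1l1, a mitochondrial protease gene (chr2:23162918), on the same chromosome, had heats of 380.0, 609.0 and 464.6 and shares of 0.791 and 0.884. The intron of 9930021J03Rik (chr19:29727987) had 373.6 in infertile, 305.6 in reciprocal, 171.0 in rescue and 598.0 in PWD/PWD males. The intron of Onecut2 (chr18:64358318) was likewise warmer in infertile and reciprocal males, with 259.5 and 196.9, than in rescue and Hum/PWD males, with 60.7 and 65.4. The highest H3K4me3 enrichment of a named member, 16.4 in infertile males with 244 and 252 fragments, lay 226307 bp from Kap (chr6:133623544), at an infertile heat of 153.2. It was 3.95 in reciprocal and 6.05 in rescue males, but each table has its own scale. The input held 15 fragments at this site in infertile, 34 in reciprocal and 22 in rescue males. By edgeR the log2 fold change of infertile over reciprocal counts was 0.43 ± 0.12 (SE, adjusted p = 0.00441). Over rescue counts it was −0.05 ± 0.14 (adjusted p = 0.883).

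Members were spread over all 19 autosomes. Inside genes lay 57.7% of members (56.4 to 59.1%), with 52.4% in introns, 2.29% in coding exons and 1.68% in UTRs, and 1.30% were within 1 kb of the start of a protein-coding gene (1.02 to 1.65%). Both shares were near those of the other infertile-map hotspots without a PRDM9-independent peak, of which 57.5% lay in genes and 1.5% near a start (1.31 to 1.71%). The share in genes was 58.5% in the B6-chromosome group (55.9 to 61.0%) and 56.8% in the PWD-chromosome group (53.4 to 60.1%), so it did not separate them. In the last 10 Mb of a chromosome lay 5.99% of members (5.37 to 6.68%), against 11.1% of the B6-chromosome group (9.56 to 12.8%), 5.94% of the PWD-chromosome group and 6.30% of symmetric B6-type hotspots, so the B6-chromosome group stood apart. Neighbouring members of a chromosome were a median of 285 kb apart, with quartiles of 110.1 and 603 kb. Only 5 of 5054 gaps exceeded 5 Mb, and the longest was 11.1 Mb.

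Chromosome 18 was densest, with 2.98 members per Mb, and chromosome 14 sparsest, with 1.47. As a share of PWD-type hotspots with a B6 share, members made up between 62.2% on chromosome 19 (56.0 to 68.1%) and 73.4% on chromosome 18 (68.6 to 77.6%). Median B6 share ranged from 0.539 on chromosome 4 to 0.600 on chromosomes 3 and 10. Every autosome held members with a heat above 100, from 17 on chromosome 9 to 58 on chromosome 1.

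Genes of meiosis held members about as often as other genes. Of 20 genes for break formation and the chromosome axis 1 held a member, as did 2 of 22 for strand exchange and crossing over and 3 of 18 for synapsis and silencing, against 10.0% of 20807 autosomal protein-coding genes. The member in an intron of Rec114, a factor needed for break formation (chr9:58727684), had heats of 89.1 in infertile, 106.9 in reciprocal, 76.4 in rescue and 216.9 in PWD/PWD males. Dmc1, which encodes the strand-exchange protein itself, held a member in an intron (chr15:79580326) with an infertile heat of 51.6 and a PWD/PWD heat of 51.9. Hfm1, a crossover helicase gene, held 2 members, in a coding exon (infertile heat 8.4) and in an intron (39.8). Sycp1, whose protein forms the transverse filaments of the synaptonemal complex, held a member with an infertile heat of 46.7, and the members in Syce2 and Syce3, of its central element, had 14 and 17.9 and were found in the infertile and PWD/PWD maps only.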

How the data were processed

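The deposited tables were the starting point. BWA alignment, SAMtools and bedtools (for H3K4me3) and the builds mm10 and mm9 are named in the submitters' processing notes. The files used here fit mm10 chromosome lengths. Which program called hotspots is not given in the sources used here. DMC1 heat was deposited by the authors as a signal in relative units. Their deposited DMC1 B6 share is a fraction without its read number, so its depth is unknown. Per the file headers, H3K4me3 counts are fragments overlapping 1 kb bins centred on hotspots, the enrichment is a maximum-likelihood signal over local background, the p-value comes from their likelihood ratio test, and the B6 share of H3K4me3 is a fraction with its number of informative reads.

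The members, gene lists and comparisons were chosen with earlier results of these data known. Hotspots matched when centres lay within 1000 bp. Bins shared by 2 tables (centres within 200 bp) were tested with edgeR 4.0.16 in R 4.3.3 (TMM, filterByExpr, quasi-likelihood test, 5% FDR), with DESeq2 1.42.0 as an alternative. Matching, the count test and the matrix search were tested on simulated data. Other steps used pysam 0.24.0, SciPy 1.17.1, pandas 2.3.3, NumPy 2.4.6 and Matplotlib 3.10.9 in Python 3.11.15, with the RefSeq GRCm38 sequence and GENCODE M21 gene models. Sites were named by the overlapping or nearest gene. The rule took the hottest members of the infertile, PWD/PWD and rescue maps, the highest H3K4me3, the shares nearest 0.5 and to each limit, the smallest edgeR p-values, members in most maps and those in meiosis genes; not all are printed. Fragments in bins are not library totals. P-values measure the spread between the samples given as biological replicates. Spleen DNA and X hotspots were not analysed here.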

Additional observations from a re-analysis of the deposited data

How the results depend on the processing

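The number of members was 3275 with symmetry limits of 0.3 to 0.7 and stayed within 1.5 times of 5073 with match distances of 500 or 2000 bp, with marked bins kept and with the authors' allele column. With limits of 0.3 to 0.7, members were found in 76.2% (reciprocal), 36.4% (rescue) and 61.2% (Hum/PWD). With the hottest hotspots of each map, as many as in the shortest, the shares were 63.6% in the reciprocal and 42.0% in the Hum/PWD map, and with 2000 bp the share in the (B6xCAST)F1 map was 16.4%. The ratio of median heat, members over asymmetric hotspots, with limits of 0.3 to 0.7, in the hotter 50% and with the allele column was 0.723, 0.554 and 0.439 in the infertile, 0.637, 0.553 and 0.448 in the reciprocal, 0.651, 0.660 and 0.560 in the rescue and 0.638, 0.622 and 0.487 in the Hum/PWD map. Each stayed below 1. Against the PWD-chromosome group alone, the ratio in the rescue map turned to 0.965 in the hotter 50%, from 1.04. With at least 5 and 20 informative reads, members symmetric by H3K4me3 were 91.9 and 97.8% (infertile), 82.5 and 94.4% (reciprocal) and 91.1 and 95.5% (rescue). With limits of 0.3 to 0.7 in both maps, members symmetric by DMC1 were 80.0% (reciprocal), 81.8% (rescue), 81.1% (Hum/PWD) and 67.2% (CAST).

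The H3K4me3 ratio of members over asymmetric hotspots was 0.667, 0.635 and 0.843 in the infertile, reciprocal and rescue F1 as a ratio of median deposited enrichment, and 0.907 (reciprocal) and 0.942 (rescue) with high-input bins kept. At sites with a bin in all 3 tables it was 1.00 (infertile) and 1.03 (reciprocal), so the direction turned when fewer sites were counted. Without replicate 1 or 2 it ranged from 0.776 to 0.790, from 0.897 to 0.904 and from 0.929 to 0.938 in the infertile, reciprocal and rescue F1. Heat at matched H3K4me3 against the B6-chromosome group of the rescue F1 was 0.614 and 0.604 with replicate 1 and replicate 2 alone. Against the PWD-chromosome group of the reciprocal F1 it turned to 1.03 with replicate 2 alone, from 0.951. The word lay within 400 bp windows of 4.81% of members.

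For infertile against reciprocal, DESeq2 called 101 bins higher and 232 lower, and 13 members higher and 1 lower, with 5427 bins left without an adjusted p; a centre distance of 50 bp gave 758 and 887 bins, and 176 and 145 members. Leaving out each replicate gave 627 to 1398 bins higher and 746 to 1207 lower, and 137 to 303 members higher and 90 to 221 lower. For infertile against rescue, DESeq2 called 23 bins higher and 262 lower, and 4 members higher and 25 lower; 50 bp gave 56 and 201 bins, and 30 and 24 members. Scaling on PRDM9-independent bins gave 2983 bins higher and 218 lower, and 1128 members higher and 21 lower. Leaving out each replicate gave 34 to 82 bins higher and 289 to 335 lower, and 11 to 40 members higher and 31 to 44 lower. Where this left a cross with 1 sample, that sample was assumed to vary like the others. Replicates shared only a number, since same-numbered deviations correlated at 0.00401 and −0.0293. With the replicate block, members called higher and lower were 369 and 290 against reciprocal and 65 and 60 against rescue. Other causes were not tested.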
